A study of Mus musculus with 12 samples.

Results

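RNA levels of 10 genes of the retinal endothelium and the blood-retina barrier were examined in both retinas of 6 p16-3MR mice. The 10 genes were chosen by name: Pecam1, Cdh5, Tek, Flt1, Kdr, Cldn5, Tjp1, Slco1c1, Abcb1a and Mfsd2a. All 10 had a row among the 24340 rows of the expression table and were among the 18509 genes above 0 in at least 1 library. The mice were 12 to 16 weeks old and all carried the p16-3MR transgene, in which regulatory sequence of p16Ink4a drives a fusion of Renilla luciferase, a red fluorescent protein and the thymidine kinase of herpes simplex virus. This kinase turns ganciclovir (GCV) into a toxin, so that GCV can kill cells in which the transgene is active. One eye of each mouse was held at an intraocular pressure (IOP) of 85 to 90 mm Hg for 60 min by infusion of saline into the anterior chamber, and the other eye was the control. Mice 1, 2 and 5 then received GCV at 25 mg/kg once a day, and mice 3, 4 and 6 were given PBS. Whole retinas were collected on day 3, which gave 4 groups of 3 libraries: control and IOP retinas of mice without GCV, and control and IOP retinas of mice with GCV. Values are FPKM, fragments per kilobase of transcript scaled to the size of the library, a unit that corrects for gene length.

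The vessels of the inner retina are lined by endothelial cells that are sealed to each other by tight and adherens junctions, and this seal is the inner blood-retina barrier. These cells carry transporters that bring hormones, sugars and lipids into the tissue and pumps that return drugs to the blood. VEGF acts on them through the receptors encoded by Kdr and Flt1, and angiopoietins act through the receptor encoded by Tek. Several of these genes are not restricted to vessels: Tjp1 is used by many cell types with junctions, and Kdr is also found in neurons and glia of the retina.

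Of the 10 genes, Slco1c1 was lower in the IOP retina in 6 of 6 mice and was the only one called between IOP and control retinas. Over all genes, 12.2% were called over both treatments and 20.8% moved the same way in all 6 pairs, so neither count of 1 in 10 exceeded the background. Flt1 was lower in 5 of 6 mice without passing the threshold, whereas Kdr, the other VEGF receptor, was higher in 5 of 6. The ratio of Flt1 to Kdr, chosen after the values of both genes had been seen, was lower in the IOP retina of each mouse. The general endothelial genes Pecam1, Cdh5 and Tek, the junction genes Cldn5 and Tjp1, and the transporter genes Abcb1a and Mfsd2a were not called in any comparison. GCV gave no called difference in any of the 10 genes. In whole retinas, fewer cells of a type and less RNA per cell cannot be told apart.

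Libraries held between 3990000 and 9050000 estimated fragments. The IOP retina of mouse 6 had the fewest, with 6800000 or more in each of the others, and had 14844 genes above 0 against 16044 to 16593 elsewhere. The IOP retina of mouse 4 stood apart in another way: the 10 retinal ganglion cell markers summed to 1021 FPKM there, against 226 and 439 FPKM in the IOP retinas of mice 3 and 6 and 927 to 1180 FPKM in control retinas of mice without GCV. Calls of the 10 genes that changed without these libraries are given both ways, as are the counts of the vessel lists in ranges.

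The 10 genes covered a wide range of levels. In the 6 control retinas, Tjp1, a scaffold protein of tight junctions also called ZO-1, was highest at 24.3 ± 1.86 FPKM (SD, n = 6), followed by Kdr at 17.6 ± 3.24 FPKM and Flt1 at 10.1 ± 2.33 FPKM. Tjp1 (lowest 21.2 FPKM) and Kdr (highest 20.7 FPKM) did not overlap, whereas Kdr (lowest 12.2 FPKM) and Flt1 (highest 12.6 FPKM) did. A middle tier held Slco1c1 at 2.20 ± 0.719 FPKM, Cldn5 at 1.90 ± 1.00 FPKM and Pecam1 at 1.73 ± 0.375 FPKM, which overlapped with each other. The lowest tier held Mfsd2a at 0.379 ± 0.160 FPKM, Abcb1a at 0.362 ± 0.0694 FPKM, Tek at 0.333 ± 0.132 FPKM and Cdh5 at 0.319 ± 0.148 FPKM, again with overlapping ranges. The defining endothelial genes Cdh5, which encodes VE-cadherin, and Pecam1, which encodes CD31, were thus far below Kdr and Flt1 in FPKM. The median number of estimated fragments per library was 6.45 for Mfsd2a, 10.4 for Cdh5, 11.2 for Tek, 14.0 for Abcb1a, 14.4 for Cldn5, 34.7 for Slco1c1, 39.9 for Pecam1, 421 for Flt1, 845 for Kdr and 1290 for Tjp1. For the genes of the lowest tier, a single library therefore rested on few fragments.

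**Figure D1:**
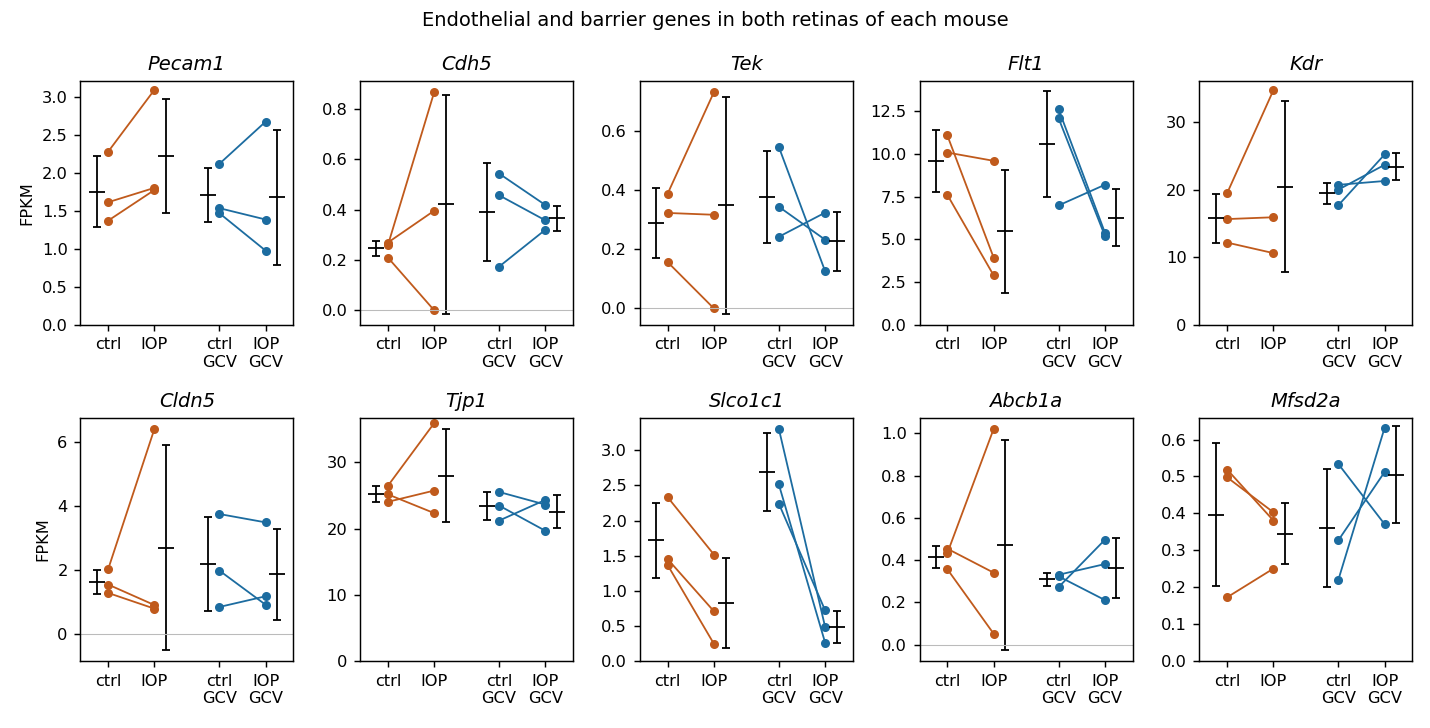
FPKM (y axes, each with its own scale) of the 10 genes in control (ctrl) and IOP retinas of mice without GCV (orange) and with GCV (blue). Each line joins the control and IOP retina of 1 mouse, and black marks give the mean and SD of the 3 libraries of a group. Slco1c1 falls along all 6 lines, from 1.37 to 3.30 FPKM in control retinas to 0.249 to 1.52 FPKM in IOP retinas, while most other panels hold lines in both directions.

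Slco1c1 encodes OATP1C1, a transporter that carries thyroid hormone across brain and retinal vessel walls and is also found in glia. In mice without GCV, Slco1c1 was 1.45, 2.33 and 1.37 FPKM in the control retinas of mice 3, 4 and 6 and 0.712, 1.52 and 0.249 FPKM in their IOP retinas. In mice with GCV it was 3.30, 2.24 and 2.51 FPKM in the control retinas of mice 1, 2 and 5 and 0.488, 0.723 and 0.265 FPKM in their IOP retinas. Each IOP retina was below its partner, at 0.105 to 0.651 times the control level. The groups overlapped without GCV, where the IOP retina of mouse 4 lay above the control retinas of mice 3 and 6, and did not overlap with GCV. The gene rested on 2.99 to 74.6 estimated fragments per library, with the fewest in the IOP retina of mouse 6.

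Differences were tested on the log2(FPKM + 1) scale with limma, with Benjamini-Hochberg adjustment over 18509 genes and a call at an adjusted p under 0.05, and a difference on this scale understates the change of low genes. Over both treatments, the mean difference of Slco1c1 between IOP and control retinas was -0.96 (SE 0.18, limma adjusted p = 0.0105). It was the 1 of the 10 genes called in this comparison, where 12.2% of all genes were called. The call held in each of 18 alternative fits, among them the fit with the eyes of a mouse as a pair and the 12 fits that left out 1 library, with adjusted p between 0.00213 and 0.0338. In mice with GCV, the difference was -1.31 (SE 0.25, limma adjusted p = 0.0308), again the 1 of 10 genes called against 1.8% of all genes. That call was not stable: it was lost when the control retina of mouse 1, 2 or 5 or the IOP retina of mouse 1 or 5 was left out (limma adjusted p = 0.0758 to 0.133), and when only the retinas of mice with GCV were fitted (0.0953). In mice without GCV, the difference was -0.62 (SE 0.25, 95% interval -1.18 to -0.05, limma adjusted p = 0.235), with 0 of the 10 genes called against 1.65% of all genes. Leaving out the IOP retina of mouse 4 gave -0.88, which was called (limma adjusted p = 0.0346), whereas leaving out that of mouse 6 gave -0.37 (0.480) and leaving out both gave -0.65 (0.161), neither called. The difference between both effects of IOP was -0.69 (SE 0.36, 95% interval -1.48 to 0.10, limma adjusted p = 0.997), so a larger fall with GCV was not shown.

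Slco1c1 was also the 1 of the 10 genes that moved the same way in all 6 eye pairs, which 20.8% of all genes did. Markers of other cell types moved in the same retinas. Of 13 leukocyte and microglia markers, 11 were called higher in IOP retinas over both treatments, and their summed level ranged from 19.2 to 63.1 FPKM in control retinas, 395 to 1067 FPKM in IOP retinas, 23.9 to 52.1 FPKM in control retinas with GCV and 205 to 2826 FPKM in IOP retinas with GCV. Ly6c2 and Cd3e were at 0 in all control retinas with GCV. Glul, the glutamine synthetase of Müller glia, fell from 846 ± 48.9 to 400 ± 81.7 FPKM without GCV and from 1057 ± 54.1 to 434 ± 220 FPKM with GCV (SD, n = 3 each, limma adjusted p = 0.0174 over both treatments), and 2 of 9 Müller glia markers, Glul and Rlbp1, were called lower and 2 higher, Rlbp1 not with the eyes as pairs (limma adjusted p = 0.0547). Of 10 retinal ganglion cell markers, 8 were called lower, but 2 with the eyes as pairs and 2 with the IOP retina of mouse 6 left out, and their sums are given below with Flt1. Of 10 lens markers, 5 were called higher, but 1 with the IOP retina of mouse 6 left out and 0 with those of mice 4 and 6 left out. The part of these cell types in the fall of Slco1c1 was not tested.

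The other transporter genes had lower levels, and neither was called. Abcb1a encodes P-glycoprotein, the drug efflux pump of barrier endothelium. It ranged from 0.0520 to 1.02 FPKM over the 12 libraries, with both extremes in IOP retinas without GCV, the lowest in mouse 6 and the highest in mouse 4. It was higher in the IOP retina in 3 pairs and lower in 3, with a mean difference of 0.03 (95% interval -0.27 to 0.32). Mfsd2a encodes a carrier of lysophospholipids that keeps transcytosis low in barrier endothelium. It ranged from 0.173 to 0.632 FPKM, was higher in 3 pairs and lower in 3, and differed by 0.05 (95% interval -0.14 to 0.24).

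**Figure D2:**
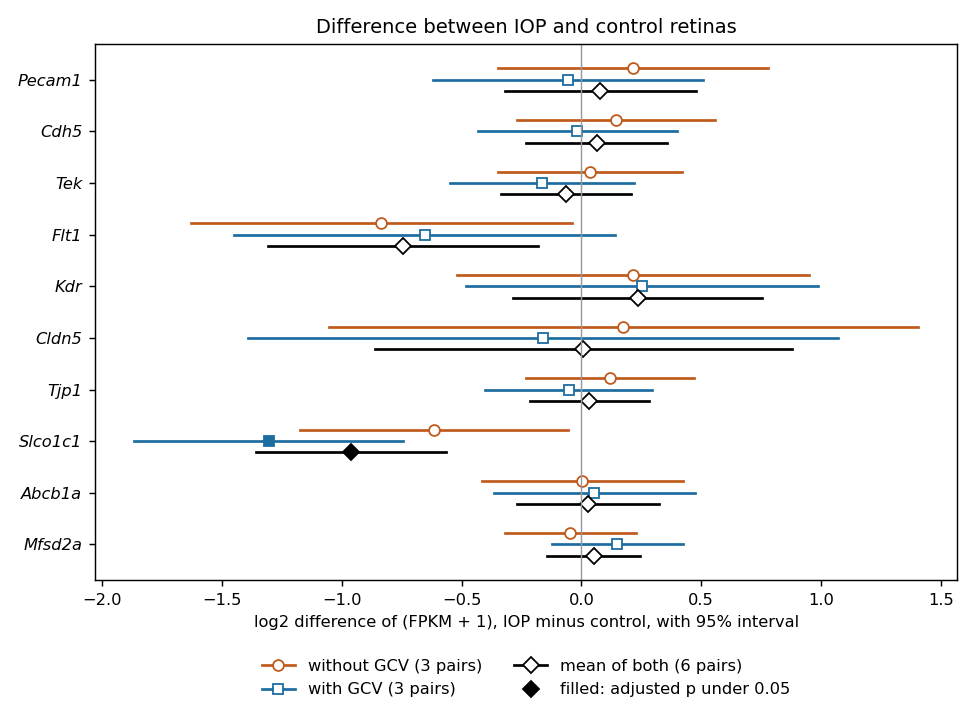
Log2 difference of (FPKM + 1) between IOP and control retinas (x axis) for each gene (y axis), with 95% intervals, for mice without GCV (circles), with GCV (squares) and the mean of both (diamonds). Filled symbols passed an adjusted p under 0.05. Slco1c1 with GCV (-1.31) and over both treatments (-0.96) are the filled ones, and Flt1 lies at -0.84, -0.65 and -0.75 with open symbols.

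Flt1 encodes VEGFR1, which binds VEGF tightly, signals weakly and, as a shed or soluble form, keeps VEGF from Kdr. The gene level used here does not separate these forms. Flt1 was 7.61, 10.1 and 11.1 FPKM in the control retinas of mice 3, 4 and 6 and 2.89, 9.60 and 3.93 FPKM in their IOP retinas. With GCV it was 6.99, 12.6 and 12.1 FPKM in the control retinas of mice 1, 2 and 5 and 8.20, 5.40 and 5.21 FPKM in their IOP retinas. In 4 mice the IOP retina was at 0.354 to 0.431 times its partner. In mouse 4 it was at 0.952 times and in mouse 1 at 1.17 times, and through these mice the groups overlapped in both treatments. Over both treatments the difference was -0.75 (SE 0.25, 95% interval -1.31 to -0.18), with an unadjusted p = 0.0143 and a limma adjusted p = 0.0776. It was -0.84 without GCV (SE 0.36, limma adjusted p = 0.246) and -0.65 with GCV (SE 0.36, limma adjusted p = 0.354). At an unadjusted p under 0.05, Flt1 and Slco1c1 were the 2 of 10 genes that passed without GCV, where 18.9% of all genes did.

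Whether Flt1 was called depended on the IOP retina of mouse 4. Without the IOP retina of mouse 4 the difference was -0.96 over both treatments (limma adjusted p = 0.00744) and -1.26 without GCV (0.0239), and it was called in both. Calls over all genes rose in the same fits, from 2258 to 4499 over both treatments and from 306 to 2432 without GCV. With the IOP retinas of mice 4 and 6 both left out, it was -1.04 over both treatments and was called (limma adjusted p = 0.0144), and -1.43 without GCV and was not (0.0512). Leaving out the IOP retina of mouse 3 gave -0.54 without GCV (limma adjusted p = 0.431). Retinal ganglion cell markers moved with Flt1: 8 of 10 were called lower over both treatments (2 of 10 with the eyes as pairs, 2 with the IOP retina of mouse 6 left out and 10 with that of mouse 4 left out), none at 0 in a whole group, and their sum ranged from 927 to 1180 FPKM in control retinas, 226 to 1021 FPKM in IOP retinas, 1165 to 1883 FPKM in control retinas with GCV and 345 to 750 FPKM in IOP retinas with GCV. The highest sum among IOP retinas was that of mouse 4 (1021 FPKM) and the next that of mouse 1 (750 FPKM), the mice whose IOP retina had a Flt1 level near or above that of its partner. The part of ganglion cells in the level of Flt1 was not tested.

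Kdr encodes VEGFR2, the receptor through which VEGF drives growth and leakage of vessels. Without GCV, Kdr was 15.6, 19.5 and 12.2 FPKM in the control retinas of mice 3, 4 and 6 and 15.9, 34.7 and 10.6 FPKM in their IOP retinas. With GCV it was 17.7, 20.0 and 20.7 FPKM in the control retinas of mice 1, 2 and 5 and 25.2, 23.7 and 21.3 FPKM in their IOP retinas. The 3 IOP retinas with GCV lay just above all 3 of their controls, and the IOP retina of mouse 4 stood far above the other libraries. The difference over both treatments was 0.23 (SE 0.23, 95% interval -0.29 to 0.75, limma adjusted p = 0.542). No fit called Kdr, and without the IOP retinas of mice 4 and 6 the difference was 0.15.

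Setting Flt1 against Kdr within a library removes what scales both receptors alike in that library. FPKM are already scaled to the size of the library, so the ratio makes no further correction for depth. What moves only 1 of the receptors remains in the ratio. The ratio was 0.487, 0.519 and 0.912 in the control retinas of mice 3, 4 and 6 and 0.182, 0.277 and 0.371 in their IOP retinas. In mice with GCV it was 0.395, 0.632 and 0.584 in the control retinas of mice 1, 2 and 5 and 0.325, 0.228 and 0.245 in their IOP retinas. The ratio was lower in the IOP retina in 6 of 6 mice, including mouse 4, whose Flt1 level itself hardly differed, and mouse 1, whose Flt1 level was higher. The mean log2 difference of the ratio was -1.11 ± 0.45 (SD, n = 6 pairs), at -1.21 ± 0.27 without GCV and -1.002 ± 0.63 with GCV (n = 3 each). Since the ratio was chosen after the values of both genes had been seen, these values are a description and no test is given.

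**Figure D3:**
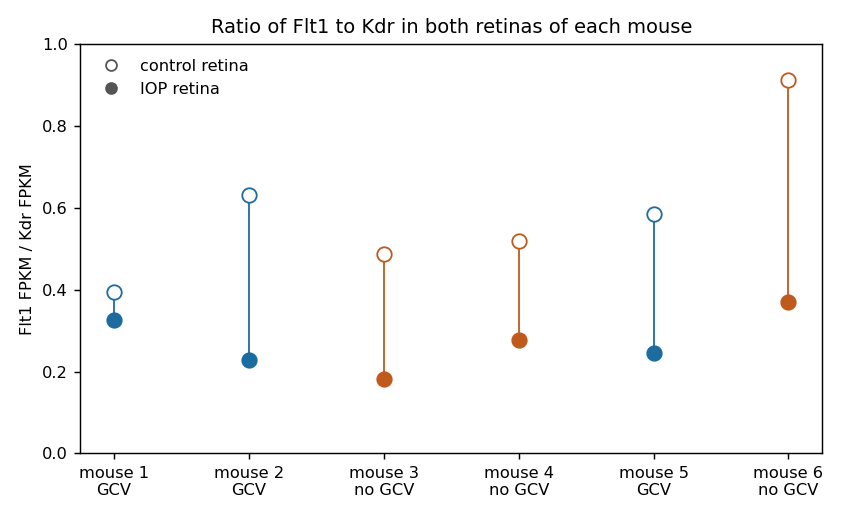
Ratio of Flt1 FPKM to Kdr FPKM (y axis) in the control retina (open circles) and the IOP retina (filled circles) of each mouse (x axis), without GCV (orange) and with GCV (blue). The filled circle lies below the open one in each of 6 mice, with the smallest step in mouse 1 (0.395 to 0.325).

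The sequences before the start sites of Slco1c1 and of both VEGF receptors are shown because Slco1c1 was the called gene and the levels of Flt1 and Kdr were set against each other above. They are the 250 bases before the RefSeq start site (GRCm38.p6, the patch release of mm10), 5′ to 3′ on the strand of the gene: chr6:141524104-141524353 on the plus strand for Slco1c1, chr5:147726012-147726261 on the minus strand for Flt1 and chr5:75978456-75978705 on the minus strand for Kdr. The windows of Flt1 and Kdr lie inside the span of their genes in the annotation, which also holds longer transcripts. Capitals mark AGGAAG or its reverse complement CTTCCT, letters bound by factors of the ETS family, many of which act in endothelium.
Slco1c1: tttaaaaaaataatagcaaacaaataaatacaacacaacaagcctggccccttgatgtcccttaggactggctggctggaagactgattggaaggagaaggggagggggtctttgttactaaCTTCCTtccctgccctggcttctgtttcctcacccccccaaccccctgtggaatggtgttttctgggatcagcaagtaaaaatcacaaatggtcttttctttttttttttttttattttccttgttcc
Flt1: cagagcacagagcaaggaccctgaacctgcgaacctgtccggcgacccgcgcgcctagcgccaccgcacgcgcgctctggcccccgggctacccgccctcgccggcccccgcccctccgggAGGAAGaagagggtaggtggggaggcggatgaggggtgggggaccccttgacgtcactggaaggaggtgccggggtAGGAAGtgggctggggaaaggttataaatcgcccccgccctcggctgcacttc
Kdr: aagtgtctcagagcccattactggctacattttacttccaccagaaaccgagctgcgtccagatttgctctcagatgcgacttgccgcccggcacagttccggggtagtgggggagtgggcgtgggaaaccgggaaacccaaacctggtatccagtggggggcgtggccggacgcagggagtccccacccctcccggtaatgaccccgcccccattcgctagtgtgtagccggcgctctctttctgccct
The letters occurred 1 time before Slco1c1, 2 times before Flt1 and not before Kdr. A RefSeq window was at hand for 8 of the 10 genes, not for Pecam1 and Cdh5. Of these 8, the ETS-type letters were found in 3, Abcb1a, Flt1 and Slco1c1, against 29.2% of 27025 promoters searched on both strands. CTTTGA, the letters of TCF factors that act downstream of Wnt, were found in 2 of 8, Abcb1a and Mfsd2a, against 14.0% of all promoters. The windows also differed in base composition, with 42.8% G and C for Slco1c1, 70.4% for Flt1 and 61.6% for Kdr, against a median of 52.0% over all promoters. A match is a description of these windows and says nothing of binding.

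The general endothelial genes did not move together with IOP. Pecam1, an adhesion molecule at endothelial contacts, was 1.62, 2.28 and 1.37 FPKM in the control retinas of mice 3, 4 and 6 and 1.81, 3.10 and 1.78 FPKM in their IOP retinas. With GCV it was 1.54, 1.47 and 2.12 FPKM in the control retinas of mice 1, 2 and 5 and 1.39, 0.977 and 2.68 FPKM in their IOP retinas. It was thus higher in all 3 mice without GCV and in 1 of 3 with GCV, and the difference over both treatments was 0.08 (95% interval -0.32 to 0.48). Cdh5, the cadherin of endothelial adherens junctions, ranged from 0 to 0.867 FPKM and was higher in 3 pairs and lower in 3, with a difference of 0.06 (95% interval -0.23 to 0.36). Tek, the angiopoietin receptor TIE2, ranged from 0 to 0.731 FPKM and was lower in 4 of 6 pairs, with a difference of -0.06 (95% interval -0.34 to 0.21). Both Cdh5 and Tek were at 0 in the IOP retina of mouse 6, the library with the fewest fragments, and highest in the IOP retina of mouse 4.

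Cldn5 encodes claudin-5, the main claudin of the blood-retina barrier. Without GCV, Cldn5 was 1.55, 2.02 and 1.28 FPKM in the control retinas of mice 3, 4 and 6 and 0.906, 6.40 and 0.793 FPKM in their IOP retinas. With GCV it was 0.846, 3.74 and 1.98 FPKM in the control retinas of mice 1, 2 and 5 and 1.18, 3.48 and 0.914 FPKM in their IOP retinas. The IOP retina of mouse 4 lay far above every other library, and Cldn5 had the widest spread of the 10 genes within groups (SD 0.76 on the log2 scale). The difference over both treatments was 0.01 (95% interval -0.86 to 0.88), and without the IOP retinas of mice 4 and 6 it was -0.30, not called either way. The interval of Cldn5 was the widest of the 10, so a moderate fall or rise was not detectable. Tjp1 was the steadiest highly expressed gene, at 25.2 ± 1.21 and 28.0 ± 7.06 FPKM in control and IOP retinas without GCV and 23.4 ± 2.16 and 22.6 ± 2.51 FPKM with GCV (SD, n = 3 each). Its difference over both treatments was 0.03 (95% interval -0.22 to 0.28).

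A pair of retinas set the extremes of most of these genes. The IOP retina of mouse 4 was the highest of the 12 libraries for 6 genes, namely Cldn5, Pecam1, Cdh5, Tek, Kdr and Abcb1a, and the IOP retina of mouse 6 was the lowest for 6, namely Cldn5, Cdh5, Tek, Kdr, Slco1c1 and Abcb1a. The mean z-score of the 10 genes was 1.39 in the former and -0.944 in the latter, and lay between -0.447 and 0.359 in the other libraries. Slco1c1, Flt1, Tjp1 and Mfsd2a did not have their highest level in the IOP retina of mouse 4.

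**Figure D4:**
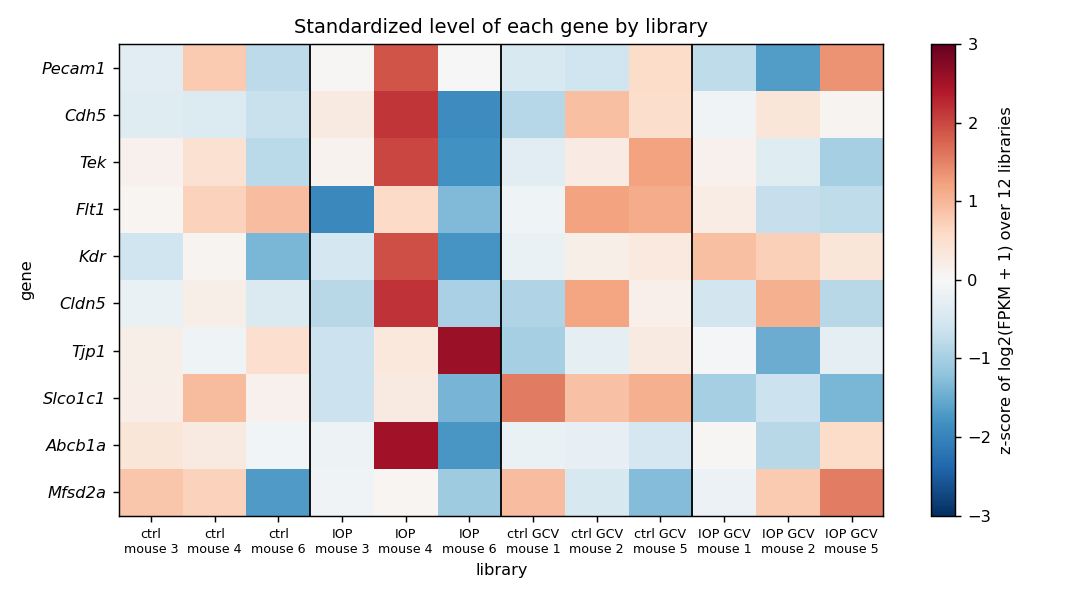
Z-score of log2(FPKM + 1) over the 12 libraries (color) for each gene (rows) and library (columns, by group and mouse). The IOP retina of mouse 4 (mean z-score 1.39) is red for most genes and that of mouse 6 (-0.944) is blue for most, while the row of Slco1c1 is red in control retinas with GCV and blue in IOP retinas with GCV.

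GCV was compared within IOP retinas and within control retinas, which come from different mice. None of the 10 genes was called by limma in either comparison or in the interaction, and 0% of all genes were called in each of the 3. At an unadjusted p under 0.05, none of the 10 genes passed, against 4.18% of all genes in IOP retinas, 1.59% in control retinas and 1.93% for the interaction. With the eyes as pairs, Slco1c1 did pass for the interaction, with an unadjusted p = 0.0383 and a limma adjusted p = 0.992. The differences between IOP retinas with and without GCV ran from -0.29 for Pecam1 (95% interval -0.86 to 0.27) to 0.35 for Kdr (95% interval -0.39 to 1.08). In control retinas they ran from -0.11 for Abcb1a (95% interval -0.53 to 0.31) to 0.45 for Slco1c1 (95% interval -0.11 to 1.01).

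Further genes of the vessel wall were taken from lists by function. Of 25 further endothelial genes, 4 were called higher in IOP retinas over both treatments and none lower, with a median difference of 0.17 against 0.01 over all genes. Of all genes, 12.2% were called in either direction. The median was 0.31 without GCV, with 21 of 25 genes higher, and 0.0167 with GCV, with 13 of 25 higher. This difference between treatments was not tested, and the IOP retina of mouse 4 had the highest mean log2 level of the list (1.67, against 1.34 and 1.12 in those of mice 3 and 6). The called genes were Ly6a, an interferon-responsive surface protein, Fli1, an ETS factor shared with leukocytes, Ecscr, a regulator of endothelial migration, and Emcn, an endothelial sialomucin named after its value had been seen. Ly6a rose from 2.49 ± 0.356 to 16.2 ± 12.6 FPKM without GCV and from 2.23 ± 0.898 to 8.23 ± 4.64 FPKM with GCV (SD, n = 3 each, limma adjusted p = 0.0125), and the call held in 12 of 12 fits without 1 library. Ecscr was 0.386 ± 0.257 and 2.24 ± 0.913 FPKM in control and IOP retinas without GCV, called in that comparison alone as well (limma adjusted p = 0.0309), and 0.246 ± 0.233 and 0.486 ± 0.110 FPKM with GCV. With the eyes as pairs, Ecscr was not called (limma adjusted p = 0.0572 over both treatments). Fli1 and Emcn were called in 4 and 1 of 12 fits without 1 library. The most abundant of the list, Podxl, a sialomucin also made by other cells, was higher in 6 of 6 pairs without being called (0.42, limma adjusted p = 0.0863), whereas Slc9a3r2, another of the most abundant, was lower in 5 of 6 without being called (-0.71, limma adjusted p = 0.118). The summed level of the list was 74.4 to 80.7 FPKM in control retinas, 112 to 128 FPKM in IOP retinas, 70.8 to 81.0 FPKM in control retinas with GCV and 87.0 to 99.1 FPKM in IOP retinas with GCV. Podxl, at 51.6 ± 4.74 and 72.0 ± 25.3 FPKM in control and IOP retinas without GCV, made up most of this sum. Beside it stood the higher leukocyte markers given above, and their part in the level of Ly6a and Fli1 was not tested.

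Of 16 further barrier transporters, 2 were called lower and none higher, with a median of -0.15, a share near the 12.2% of all genes called. Tfrc, the transferrin receptor, fell from 43.8 ± 6.19 to 32.1 ± 6.82 FPKM without GCV and from 41.4 ± 3.75 to 26.3 ± 3.98 FPKM with GCV (limma adjusted p = 0.0230). It was lower in 6 of 6 pairs and called in 7 of 12 fits without 1 library. Slc16a1, the lactate carrier MCT1, fell by 0.38 (limma adjusted p = 0.0375), was called in 5 of these 12 fits and was not called with the eyes as pairs (limma adjusted p = 0.0839). Slc2a1, the glucose carrier GLUT1 and one of the most abundant genes of the list, was 119 ± 18.0 and 98.9 ± 19.5 FPKM in control and IOP retinas without GCV and 101 ± 15.5 and 117 ± 9.16 FPKM with GCV, and was not called. Slc6a6, the taurine carrier, was lower in 6 of 6 pairs at -0.39 without being called (limma adjusted p = 0.10). Slc3a2, a subunit of amino acid carriers, and Abcb1b, a second P-glycoprotein gene, were at 0.23 and 0.55 and were not called either (0.20 and 0.0587). These carriers are also made by retinal neurons, glia or pigment epithelium.

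Among 17 further junction genes, 1 was called higher and 1 lower, a share near the 12.2% of all genes called. With the IOP retina of mouse 4 left out, 7 were called, in a fit where calls over all genes rose from 2258 to 4499. Jam2, an adhesion molecule of tight junctions, fell from 48.6 ± 1.02 to 38.5 ± 2.58 FPKM without GCV and from 44.9 ± 1.00 to 36.5 ± 2.08 FPKM with GCV (limma adjusted p = 0.00715). Its control and IOP retinas did not overlap in either treatment, and the call held in 12 of 12 fits without 1 library. Jam2 stood far above Cldn5 (1.62 FPKM in control retinas without GCV), and which cells made its RNA was not tested. Lsr, which encodes angulin-1 of tricellular junctions, rose from 1.20 ± 0.132 to 3.05 ± 0.482 FPKM without GCV and from 1.41 ± 0.0142 to 2.11 ± 0.569 FPKM with GCV (limma adjusted p = 0.00990), and it was also called in mice without GCV alone (0.0279). Ctnnb1, the β-catenin that links cadherins to the cytoskeleton and the most abundant of the list, differed by -0.02 and was not called. Ctnna1, its partner α-catenin, and F11r, the adhesion molecule JAM-A, were higher in 6 of 6 pairs (0.47 and 0.43) without being called (limma adjusted p = 0.0550 and 0.0538).

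Of 18 genes of VEGF and angiopoietin signaling, 3 were called lower and 1 higher, beside 12.2% of all genes called in either direction. The ligand Vegfa fell from 31.6 ± 3.70 to 25.0 ± 4.24 FPKM without GCV and from 33.2 ± 3.43 to 25.7 ± 2.97 FPKM with GCV (limma adjusted p = 0.0484), lower in 6 of 6 pairs but called in 2 of 12 fits without 1 library. Angpt4 and Apln, ligands of TIE2 and of the apelin receptor, fell by 0.58 and 0.43 on the log2 scale (limma adjusted p = 0.0134 and 0.0136), from means of 0.662 and 0.377 FPKM in control retinas without GCV. The coreceptor Nrp1 rose from 1.70 ± 0.302 to 3.43 ± 1.14 FPKM without GCV and from 1.67 ± 0.284 to 2.84 ± 0.774 FPKM with GCV (limma adjusted p = 0.0361, 0.0567 with the eyes as pairs) and was called in 3 of 12 fits without 1 library. Vegfb, the most abundant ligand of the list, was lower in 5 of 6 pairs (-0.42) and Nrp2 differed by 0.05, neither called. Of 15 genes of Norrin and Wnt signaling, which maintains the barrier, 1 was called: Reck, a cofactor of Wnt7 signaling, fell from 2.81 ± 0.445 to 1.70 ± 0.523 FPKM without GCV and from 2.81 ± 0.0948 to 1.44 ± 0.495 FPKM with GCV (limma adjusted p = 0.0264), called in 5 of 12 fits without 1 library. Wnt7b and Lef1 were at 1.003 and 0.41 and the abundant Axin2, Lrp6 and Apcdd1 at -0.16, 0.06 and -0.0912, none of them called.

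Of 14 genes of vessel permeability and activation, 4 were called higher and none lower, beside 12.2% of all genes called in either direction. Vcam1, an adhesion molecule that holds leukocytes and is also made by Müller glia, rose from 3.64 ± 0.241 to 12.1 ± 6.31 FPKM without GCV and from 3.91 ± 0.556 to 10.9 ± 2.99 FPKM with GCV (limma adjusted p = 0.00509). Ptrf, which builds caveolae, rose from 4.06 ± 0.979 to 6.65 ± 1.86 FPKM and from 3.07 ± 0.462 to 6.62 ± 1.10 FPKM in the same order (limma adjusted p = 0.0149). Ch25h, cholesterol 25-hydroxylase, rose by 1.74 (limma adjusted p = 0.0155), and Icam1, named after its value had been seen, rose by 1.52 and was not called with the eyes as pairs (limma adjusted p = 0.0403, 0.0801 with pairs). Among the abundant genes of the list, Cav1, the coat protein of caveolae, differed by 0.10, while the water channel Aqp1 and the chemokine receptor Ackr1 were lower in 5 of 6 pairs each (-0.45 and -0.83), and none of the 3 was called (limma adjusted p = 0.756, 0.0593 and 0.159). These 3 genes averaged 23.1, 90.7 and 30.4 FPKM in control retinas without GCV, against 1.62 FPKM for Cldn5. Which cells made the RNA of these 3 genes was not tested. Of 16 mural cell genes, 1 was called, Anpep, which leukocytes also make and which was named after its value had been seen, and the abundant Vtn (0.00079) and Acta2 (0.86) were not. Vtn averaged 863 FPKM in control retinas without GCV, against 6.34 FPKM for Acta2, and which cells made its RNA was not tested. Of 11 blood genes, the platelet genes Pf4 and Itga2b were called higher, Itga2b not with the eyes as pairs (limma adjusted p = 0.0592), and Hba-a1, the most abundant, was not. Without the IOP retina of mouse 6, none of the 11 was called. With the IOP retinas of mice 4 and 6 both left out, between 3 and 6 genes were called in each of the 6 vessel lists, against 1 to 4 with all libraries, 3 to 7 without that of mouse 4 alone and 1 to 4 without that of mouse 6 alone. Calls over all genes also rose, from 2258 to 4890 without both and to 4499 without that of mouse 4.

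**Figure D5:**
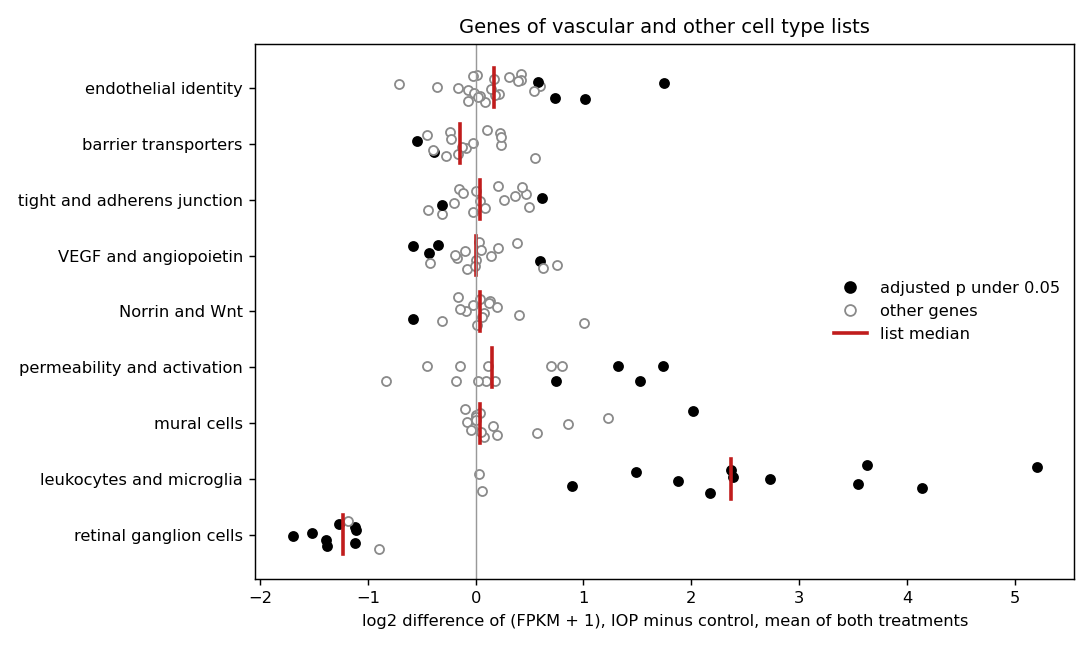
Log2 difference of (FPKM + 1) between IOP and control retinas, mean of both treatments (x axis), for each gene of 9 lists (y axis). Filled points passed an adjusted p under 0.05 and red bars are list medians, which are 0.17 for endothelial identity, -0.15 for barrier transporters, 2.37 for leukocytes and microglia and -1.23 for retinal ganglion cells.

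The genes whose pattern over the 12 libraries was most like the mean of the 10 genes were sought at a minimum level that many genes of the vessel lists did not reach. Among 12901 genes that averaged 1 FPKM or more, the highest Pearson correlations belonged to Poglut1 (0.873), Tril (0.864), Slc22a23 (0.858), 0610010F05Rik (0.858), Dlg5 (0.850), Miat (0.849), Atg2b (0.848), Dsel (0.845), Glce (0.844) and Sorl1 (0.842). The libraries share mice and the level of the IOP retina of mouse 4. Without that library, the correlations ranged from 0.699 for Tril to 0.933 for Sorl1. The IOP retina of mouse 6, lowest in the mean z-score (-0.944), was kept in both sets of correlations. How high the top values among 12901 genes would run without a shared pattern was not tested.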

How the data were processed

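RNA of whole retinas was made into libraries with a TruSeq stranded mRNA kit and sequenced in pairs of reads. The authors deposited 1 table, whose values were taken as FPKM: no source states their unit, which was read from the values, since low values times transcript length were multiples of 1 number within a library. The submitters' processing notes name TopHat2, Bowtie2, Cufflinks, Cuffdiff and mm10, while the methods of the study describe counts of exonic RefSeq reads by HOMER, and which of these gave the deposited FPKM is not given in the sources used here. No column was left unused (0).

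Estimated fragments came from 2243 genes with 1 transcript of at least 1500 bases, 170 bases subtracted, where 75.6% to 82.4% of low values lay within 0.1 of a whole number, an approach picked once the values were known. These fragments give a scale only, so no interval of single values was computed. The plan had been a model of counts if the table held them and limma otherwise, and limma was used because it is in FPKM. Each gene's log2(FPKM + 1) was fitted by limma 3.58.1 (R 4.3.3) with 1 mean for each of 4 groups and a trend in the variance, and p-values were adjusted by Benjamini-Hochberg over 18509 genes above 0 in at least 1 library (5831 rows were at 0 in all 12), and called at 0.05. The fit was also run on simulated data with planted changes in genes with a mean log2(FPKM + 1) above 1 in control retinas. These data held independent noise, without eye pairs or outlying libraries. The run therefore says nothing of pairs, of such libraries or of lower genes, and no result here rests on it. The eyes of a mouse are pairs by animal, and their deviations from group means correlated at -0.117 to 0.388 (12910 genes). Each group has 3 mice. The main fit took the 12 retinas as independent, with a spread pooled over the 4 groups. Its p-values and intervals thus measure the spread between retinas within groups, not the spread within eye pairs. With the eyes as pairs, the SE over both treatments fell from 0.234 to 0.143 for Kdr and 0.392 to 0.263 for Cldn5. It hardly changed for Flt1 (0.253 to 0.245) and, for Mfsd2a alone, did not fall (0.0871 to 0.0874).

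The 10 genes, the lists and the alternatives were chosen with earlier results of these data known. Of each further vessel list, the 3 most abundant genes and the 3 with the smallest unadjusted p were to be named, of each other cell type the 2 most abundant, and the 10 genes most correlated with the mean z-score of the 10. Markers of pigment epithelium, lens and rods were also listed: 0 of 9, 5 of 10 and 0 of 8 were called, the 5 lens genes higher in IOP retinas. The lens calls fell to 1 without the IOP retina of mouse 6 and to 0 without those of mice 4 and 6, and the lens sum was 96.6 to 4820 FPKM in IOP retinas without GCV and reached 6767 FPKM in the control retina of mouse 1, a mouse with GCV. As alternatives, the pseudocount was set to 0.1, genes were kept at 1 FPKM in 3 libraries, libraries were scaled by median ratios, only the groups compared were fitted, the mouse was a block, the trend was dropped, the threshold was set to 0.1 or to an unadjusted 0.05, and each library was left out. Leaving out the IOP retinas of mice 4 and 6 together was added after seeing the data. Promoters were RefSeq windows (GRCm38.p6). Tables and figures were made with Python 3.11.15 (matplotlib 3.10.9, numpy 2.4.6, pandas 2.3.3).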

Additional observations from a re-analysis of the deposited data

Results flagged for a closer look

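Named genes were flagged if the IOP retina was higher in every pair of 1 treatment and lower in every pair of the other. A called interaction was the other ground for a flag. Slc2a1, the glucose carrier GLUT1, was flagged by the rule of direction, so its opposite directions are not a separate result. How many of all genes meet this rule was not counted. For Slc2a1, the IOP retina was lower than its partner in each of the 3 mice without GCV and higher in each of the 3 mice with GCV. The differences were -0.27 and 0.23 on the log2 scale, neither of them called (limma adjusted p = 0.382 and 0.515). The difference between both effects was 0.50 (unadjusted p = 0.0591, limma adjusted p = 0.997), and no gene passed the adjusted test of this difference.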

How the results depend on the processing

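No member was called in the interaction or between GCV and no GCV under any alternative fitted for that comparison. The mouse block was not fitted for GCV against no GCV, which compares different mice. Over both treatments, Slco1c1 kept its direction and its call throughout. The number of the 10 genes called over both treatments was 1, and 2 at an adjusted p under 0.1, at an unadjusted p under 0.05 and without the IOP retinas of mice 4 and 6 (Flt1 added each time), with 1 to 2 when 1 library was left out. It was 1 with GCV, 0 with only the groups compared and 0 to 1 with 1 library left out. Without GCV it was 0, 2 at an unadjusted p under 0.05 and 0 to 2 with 1 library left out.

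Over all genes, 306 were called without GCV, 334 with GCV and 2258 over both treatments. With the mouse as a replicate block (eyes as pairs) these were 75, 144 and 1351, and the block changed no call among the 10 genes. With 1 library left out they were 20 to 2432, 62 to 697 and 788 to 4499, highest without the IOP retina of mouse 2 with GCV and without that of mouse 4 in the others. A pseudocount of 0.1 gave 464 and 535 in single treatments, only the groups compared 185 and 7, an adjusted p under 0.1 gave 607, 780 and 4131, an unadjusted p under 0.05 gave 3501, 3547 and 5611, and leaving out the IOP retinas of mice 4 and 6 gave 1619 without GCV and 4890 over both. The cause was not tested.

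Differences near 0 changed sign. With a pseudocount of 0.1, Tek and Abcb1a were at -0.20 and -0.28 without GCV, Cdh5 at 0.0076 with GCV, and Cldn5 and Abcb1a at -0.0713 and -0.0754 over both. Without the IOP retinas of mice 4 and 6, Cldn5, Tjp1 and Abcb1a were at -0.45, -0.17 and -0.0771 without GCV, and Cldn5, Pecam1, Tjp1 and Abcb1a at -0.30, -0.0094, -0.11 and -0.0119 over both. With 1 library left out, values over both treatments ranged from -0.10 to 0.14 for Abcb1a, -0.0472 to 0.18 for Cdh5, -0.33 to 0.19 for Cldn5, -0.0093 to 0.10 for Mfsd2a, -0.0473 to 0.18 for Pecam1, -0.16 to 0.0342 for Tek and -0.0612 to 0.10 for Tjp1. Without GCV they ranged from -0.25 to 0.22 for Abcb1a, -0.0763 to 0.37 for Cdh5, -0.49 to 0.53 for Cldn5, -0.24 to 0.58 for Kdr, -0.17 to 0.0190 for Mfsd2a, -0.16 to 0.23 for Tek and -0.0687 to 0.26 for Tjp1. With GCV they ranged from -0.0167 to 0.14 for Abcb1a, -0.14 to 0.0616 for Cdh5, -0.54 to 0.18 for Cldn5, -0.31 to 0.14 for Pecam1 and -0.12 to 0.0372 for Tjp1. None of these was called. The mean over both treatments was not fitted on only the groups compared, since it uses all 4, and the genes under 1 FPKM had no value under the filter.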
